A study of Setaria viridis with 15 samples.

Results

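The genes described here encode the enzymes that make and break down starch, sucrose and trehalose in the shoot of Setaria viridis, a small C4 grass. They were chosen by name from the annotated gene list: sucrose and sucrose-phosphate synthases, starch synthases, branching enzymes, ADP-glucose pyrophosphorylases (annotated by another name), amylases, invertases and beta-fructofuranosidases, trehalose enzymes, glucan water dikinase and other enzymes with alpha-glucan in the name, with inhibitor proteins left out. The rule found 97 of the 28032 genes in the count table, and 88 of the 97 had enough counts to be tested. The other 9 reached at most 0.544 CPM in any library and are not described further. In CPM a gene's count is divided by its library's TMM-scaled total, so that libraries of unequal depth can be compared.

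RNA was sequenced from shoots of wild-type seedlings, 5 days old when placed in pairs on plant medium, after 7 days in sealed plates under a 12 h photoperiod. Each plate also held a small dish of LB medium that carried the bacterial isolate AI2.2-A, CTB P6B8 or MTS P5D6, or no bacteria (mock control), so that plant and bacteria shared air only. There were 4 AI2.2-A, 3 CTB P6B8, 4 MTS P5D6 and 4 control libraries, labelled as biological replicates, and the series plans all pairwise comparisons of the 4 treatments to follow the response to bacterial volatiles. The labels give neither the species of the isolates nor the hour of harvest, and do not say how many plates or seedlings went into a library.

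Starch is the carbon store that leaves build in the chloroplast by day and break down at night. ADP-glucose pyrophosphorylase makes the activated glucose, starch synthases add it to the growing chains, branching and debranching enzymes shape them, and at night glucan water dikinase, beta-amylases and the disproportionating enzyme DPE2 return the carbon as maltose and glucose. Sucrose, the sugar moved through the plant, is made by sucrose-phosphate synthase followed by sucrose-phosphatase, and is cleaved either by sucrose synthase or by invertases of the cell wall, vacuole and cytosol. Trehalose 6-phosphate, made by trehalose-6-phosphate synthases (TPS) and removed by the phosphatases (TPP), is known as a signal of sucrose status in plants.

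Library totals ran from 13852517 to 25123025 counts. In a principal component plot AI2.2-A replicate 4 stood apart from the other AI2.2-A libraries, at 21.2 on the second component against 45.6 to 54.3. It lay beside CTB P6B8 replicate 3: on the first component they stood at 18.5 (AI2.2-A replicate 4) and 17.9, and both stood at 21.2 on the second. CTB P6B8 replicate 3 held the most counts of plastid genes (0.184% against 0.0209% to 0.0652% in the other libraries). The summed level of 23 green shoot markers, such as chlorophyll-binding proteins and C4 enzymes, was 20159 to 26624 CPM with AI2.2-A, 17926 to 22658 CPM with CTB P6B8, 16786 to 19435 CPM with MTS P5D6 and 25966 to 33667 CPM in controls, with no marker at 0. Of these markers 4 rose and 6 fell with AI2.2-A (17.4% and 26.1%, where over all genes 23.4% rose and 24.3% fell). With CTB P6B8, 4 rose and 9 fell (17.4% and 39.1%, over all genes 22.6% and 22.7%). With MTS P5D6, 3 rose and 15 fell (13% and 65.2%, over all genes 23.9% and 28.3%). Genes listed as root markers by name alone, among them ROOT HAIR DEFECTIVE 3 homologs, summed to 208 to 298 CPM. Depending on the library, 0 to 3 of the 10 were at 0. Whether they mark root tissue was not tested. Of the 7 tested, 2 rose and 3 fell with AI2.2-A (28.6% and 42.9%), and 1 rose and 4 fell with CTB P6B8 (14.3% and 57.1%). With MTS P5D6, none of the 7 rose and 3 fell (0% and 42.9%). Over all genes, 23.4%, 22.6% and 23.9% rose and 24.3%, 22.7% and 28.3% fell with the isolates in that order. The 14 seed and endosperm markers, of which 8 could be tested, summed to 92.7 to 100.2 CPM with AI2.2-A, 101 to 106 CPM with CTB P6B8, 97.2 to 105 CPM with MTS P5D6 and 80.5 to 86.1 CPM in controls. Of the 8, 2 rose and 1 fell with AI2.2-A (25% and 12.5%, over all genes 23.4% and 24.3%). With CTB P6B8, 3 rose and none fell (37.5% and 0%, over all genes 22.6% and 22.7%). With MTS P5D6, 5 of the 8 rose and none fell (62.5% and 0%, over all genes 23.9% and 28.3%). Among them, 22 kDa alpha-zein 16-like (LOC117840433) had 1.20 to 3.38 CPM with AI2.2-A, 1.93 to 2.25 CPM with CTB P6B8 and 0.217 to 0.384 CPM with MTS P5D6, and no count in any control. Glutelin type-D 1-like (LOC117850777) had 22.9 to 31.4 CPM with AI2.2-A, 24.6 to 26.7 CPM with CTB P6B8, 14.02 to 20.5 CPM with MTS P5D6 and 9.67 to 12.9 CPM in controls. Both genes were chosen after their values were seen. Of the 8 seed markers, 2 were higher and 3 were lower with AI2.2-A than with MTS P5D6 (25% and 37.5%). Over all genes, 23.8% were higher and 21.4% lower. Among the 8, log2 differences of AI2.2-A over MTS P5D6 ran from -2.30 to 2.86. Their log2 fold changes of AI2.2-A over control ran from -2.02 to 8.31. Of 16 tested circadian clock genes, listed because starch turnover is diurnal, 4 rose and 6 fell with AI2.2-A (25% and 37.5%, where over all genes 23.4% rose and 24.3% fell), 4 rose and 6 fell with CTB P6B8 (25% and 37.5%, over all genes 22.6% and 22.7%), and 8 rose and 6 fell with MTS P5D6 (50% and 37.5%, over all genes 23.9% and 28.3%). The part of green tissue, root-named genes, seed storage transcripts and the clock in the results below was not tested. In whole shoots, fewer cells of a type and less RNA per cell cannot be told apart.

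The starch and sugar genes changed in both directions beside every isolate. With AI2.2-A, 23 of the 88 tested genes rose and 33 fell, at an adjusted p under 0.05 in the quasi-likelihood test of edgeR, adjusted by the Benjamini-Hochberg method over all 20310 genes tested. These were 26.1% and 37.5% of the tested starch and sugar genes, where over all genes 23.4% rose and 24.3% fell. With CTB P6B8, 21 rose and 29 fell (23.9% and 33.0%), against 22.6% and 22.7% over all genes. With MTS P5D6, 24 rose and 28 fell (27.3% and 31.8%), against 23.9% and 28.3%. The median log2 fold change of the 88 was -0.05 for AI2.2-A, -0.05 for CTB P6B8 and -0.06 for MTS P5D6, against 0.00, 0.00 and -0.05 over all genes. The 3 comparisons share the same 4 control libraries. Of the 88 genes, 12 rose with each of the 3 isolates, 16 fell with each, 6 rose with an isolate and fell with another, and 11 were called with none. The share of all genes with each of these patterns was not counted, so these counts are a description only. Scaling by library totals alone, which shifts the median of all genes with AI2.2-A by 0.13 on the log2 scale, gave 28 higher and 23 lower with AI2.2-A.

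**Figure D1:**
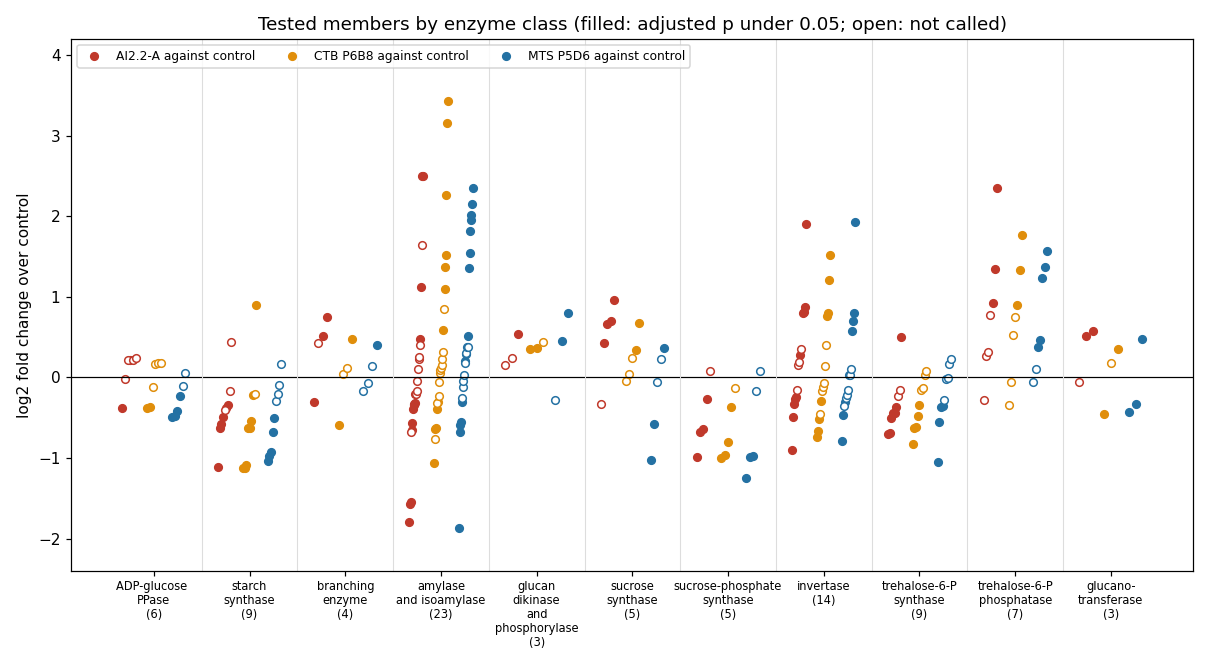
Log2 fold change over control (y axis) of each of the 88 tested genes, by enzyme class (x axis, number of tested genes in brackets), for AI2.2-A (red), CTB P6B8 (orange) and MTS P5D6 (blue), with filled points for called genes. Called sucrose-phosphate synthases lie below 0 with every isolate, called trehalose-6-phosphate phosphatases lie above 0, and amylases spread from -1.87 to 3.43.

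The isolates also differed from each other. AI2.2-A against MTS P5D6 gave 27 higher and 26 lower starch and sugar genes (30.7% and 29.5%), where 23.8% and 21.4% of all genes were called. CTB P6B8 against MTS P5D6 gave 14 higher and 12 lower (15.9% and 13.6%), where 15.2% and 11.1% of all genes were called. AI2.2-A against CTB P6B8 gave 9 higher and 7 lower (10.2% and 7.95%), where 4.53% and 5.86% of all genes were called. The last pair was unstable: without CTB P6B8 replicate 2 it gave 2 higher and 1 lower, and without AI2.2-A replicate 4, the library that lay beside CTB P6B8 replicate 3, it gave 16 lower. By library totals alone, CTB P6B8 against MTS P5D6 gave 15 higher and 5 lower. The genes with values in every library below were named by a rule of level and size of change. Hexokinase-7, probable trehalase and the phosphofructokinases LOC117850201 and LOC117865850 were also named by rule. Other genes given by mean or range, or by fold change alone, were chosen after their values were seen. Calls of single genes said below to be lost or made refer to fits without single libraries, and other processing choices are treated at the end.

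Sucrose synthase 2 (LOC117838151), which cleaves sucrose into UDP-glucose and fructose, separated the isolates. It had 1034, 976, 817 and 643 CPM with AI2.2-A, 401, 409.7 and 481 CPM with CTB P6B8 and 183, 265, 177 and 248 CPM with MTS P5D6. Controls had 471, 364, 458 and 488 CPM. All 4 AI2.2-A libraries lay above all controls, all 4 MTS P5D6 libraries lay below them, and the CTB P6B8 libraries overlapped the controls. Log2 fold changes over control were 0.96 ± 0.16 for AI2.2-A, -0.05 ± 0.17 for CTB P6B8 and -1.03 ± 0.16 for MTS P5D6 (adjusted p = 0.000133, 0.838 and 5.34e-05). Each pair of isolates differed, by 1.01 ± 0.17 for AI2.2-A over CTB P6B8, 1.99 ± 0.16 for AI2.2-A over MTS P5D6 and 0.98 ± 0.17 for CTB P6B8 over MTS P5D6 (adjusted p = 0.00317, 6.67e-07 and 0.00071). AI2.2-A replicate 4, at 643 CPM, was the lowest of its group and still above the highest control, at 488 CPM.

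Of the 5 sucrose synthases, 4 rose and none fell with AI2.2-A (80% and 0%, where over all genes 23.4% rose and 24.3% fell). With CTB P6B8, 2 rose and none fell (40% and 0%, over all genes 22.6% and 22.7%). With MTS P5D6, 1 rose and 2 fell (20% and 40%, over all genes 23.9% and 28.3%). Sucrose synthase 1 (LOC117852695) averaged 440.4 ± 24.3 CPM with AI2.2-A, 342 ± 27.0 CPM with CTB P6B8, 316 ± 44.8 CPM with MTS P5D6 and 271 ± 27.6 CPM in controls (SD, n = 4, 3, 4 and 4). Its log2 fold changes were 0.70 ± 0.10 for AI2.2-A, 0.34 ± 0.11 for CTB P6B8 and 0.22 ± 0.10 for MTS P5D6, so that it rose with AI2.2-A and CTB P6B8. The CTB P6B8 call was lost without CTB P6B8 replicate 2 (log2 fold change 0.27, adjusted p 0.0805). A call for MTS P5D6 was made without any 1 of CTB P6B8 replicate 3, MTS P5D6 replicate 4 and Control replicate 2 (log2 fold change 0.27 to 0.30, adjusted p 0.0147 to 0.0373). Sucrose synthase 7 (LOC117852648) averaged 56.9 ± 1.45 CPM with AI2.2-A, 57.5 ± 5.33 CPM with CTB P6B8, 46.1 ± 8.88 CPM with MTS P5D6 and 35.9 ± 1.85 CPM in controls, with log2 fold changes of 0.66 ± 0.11 for AI2.2-A, 0.68 ± 0.12 for CTB P6B8 and 0.36 ± 0.11 for MTS P5D6. It rose with all 3. Sucrose synthase 4 (LOC117840640) fell with MTS P5D6, at a log2 fold change of -0.58 ± 0.15, and had 14.7 to 21.4 CPM with AI2.2-A, 17.6 to 28.6 CPM with CTB P6B8, 13.6 to 16.9 CPM with MTS P5D6 and 18.5 to 27.9 CPM in controls.

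Most sucrose-phosphate synthases fell beside every isolate. The gene named only sucrose-phosphate synthase (LOC117857684), for the regulated step of sucrose synthesis in leaves, had 256, 281, 244 and 315 CPM with AI2.2-A, 259.7, 256 and 297 CPM with CTB P6B8 and 257, 285, 247 and 299.6 CPM with MTS P5D6. Controls had 545, 480.0, 567 and 576 CPM. All 11 isolate libraries, at 244 to 315 CPM, lay below all 4 controls, at 480.0 to 576 CPM. The log2 fold changes were close to -1 with each isolate, at -0.99 ± 0.10 for AI2.2-A, -1.0 ± 0.10 for CTB P6B8 and -0.99 ± 0.10 for MTS P5D6 (adjusted p = 1.27e-06, 3.72e-06 and 6.49e-07). The differences between isolates were 0.02 ± 0.10, 0.01 ± 0.09 and -0.01 ± 0.10 for AI2.2-A over CTB P6B8, AI2.2-A over MTS P5D6 and CTB P6B8 over MTS P5D6, and none was called.

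Probable sucrose-phosphate synthase 5 (LOC117834187) fell further with MTS P5D6 than with the other isolates. It had 34.5, 38.2, 26.8 and 29.5 CPM with AI2.2-A, 25.8, 30.4 and 30.0 CPM with CTB P6B8 and 21.2, 21.3, 18 and 24.0 CPM with MTS P5D6. Controls had 48.5, 49.7, 54.4 and 48.0 CPM. The 3 isolate groups lay below all controls, and all MTS P5D6 libraries lay below all of the other isolates. On the log2 scale the changes were -0.64 ± 0.11 for AI2.2-A, -0.80 ± 0.12 for CTB P6B8 and -1.25 ± 0.11 for MTS P5D6 (adjusted p = 0.00017, 5.98e-05 and 2.95e-07). The differences were 0.61 ± 0.11 for AI2.2-A over MTS P5D6 (adjusted p = 0.000325) and 0.44 ± 0.12 for CTB P6B8 over MTS P5D6 (adjusted p = 0.0113). Probable sucrose-phosphate synthase 3 (LOC117852965) fell with all 3, by log2 fold changes of -0.67 ± 0.10 for AI2.2-A, -0.96 ± 0.11 for CTB P6B8 and -0.98 ± 0.10 for MTS P5D6. Of the 5 genes, 4 fell with AI2.2-A, 4 fell with CTB P6B8 and 3 fell with MTS P5D6 (80%, 80% and 60%), and none rose. Over all genes, 24.3%, 22.7% and 28.3% fell with the isolates in that order. By library totals alone, 1 of the 5 rose and 3 fell with AI2.2-A. Probable sucrose-phosphate synthase 4 (LOC117860446) was called with none, at 0.08 ± 0.08 for AI2.2-A, -0.14 ± 0.09 for CTB P6B8 and 0.07 ± 0.08 for MTS P5D6.

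**Figure D2:**
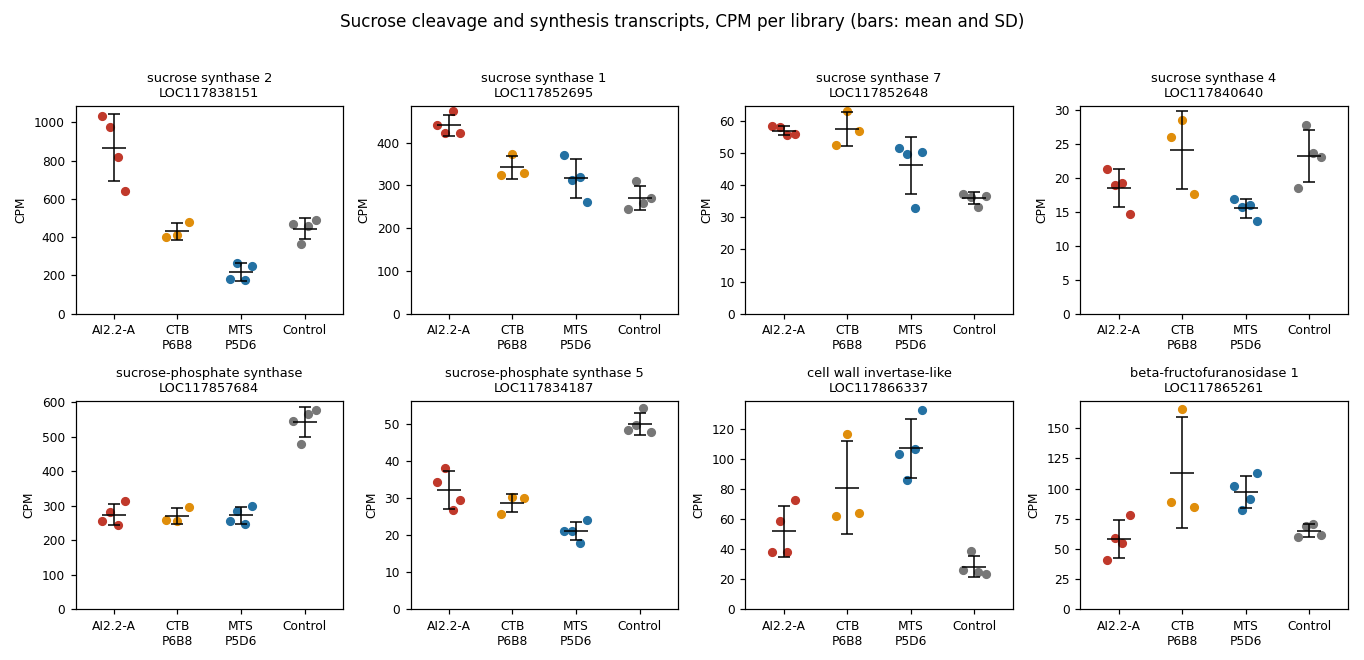
CPM per library (y axis, from 0) of 4 sucrose synthases, 2 sucrose-phosphate synthases and 2 acid invertases, with points for libraries and bars for mean and SD, in AI2.2-A, CTB P6B8, MTS P5D6 and control shoots (x axis). Sucrose synthase 2 stands at 643 to 1034 CPM with AI2.2-A and 177 to 265 CPM with MTS P5D6, and sucrose-phosphate synthase at 244 to 315 CPM with every isolate against 480.0 to 576 CPM in controls.

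Among the invertases, which split sucrose into glucose and fructose, the acid forms named beta-fructofuranosidase and the neutral and alkaline forms moved in both directions. Of 7 tested beta-fructofuranosidases, 4 rose and none fell with AI2.2-A (57.1% and 0%), and 3 rose and none fell with CTB P6B8 (42.9% and 0%). With MTS P5D6, 3 rose and 2 fell (42.9% and 28.6%). Over all genes, 23.4%, 22.6% and 23.9% rose and 24.3%, 22.7% and 28.3% fell with the isolates in that order. The MTS P5D6 counts moved to between 1 and 3 higher and between 1 and 2 lower without any 1 of CTB P6B8 replicate 3, MTS P5D6 replicates 1, 2 and 4 and Control replicates 1 to 4. A cell wall form (LOC117866337), which acts on sucrose outside the cell, rose with each isolate. It had 37.8, 58.7, 37.9 and 72.3 CPM with AI2.2-A, 62.1, 116 and 63.8 CPM with CTB P6B8 and 103, 85.6, 106 and 133 CPM with MTS P5D6. Controls had 25.98, 38.3, 24.7 and 23.2 CPM. The MTS P5D6 and CTB P6B8 libraries lay above all controls, and AI2.2-A replicates 1 and 3 lay just below the highest control. Relative to control the log2 fold changes were 0.88 ± 0.24 for AI2.2-A, 1.52 ± 0.26 for CTB P6B8 and 1.93 ± 0.25 for MTS P5D6 (adjusted p = 0.00761, 0.000231 and 1.05e-05). AI2.2-A was below MTS P5D6 by a log2 difference of -1.05 ± 0.24 (adjusted p = 0.00206).

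Neighbouring cell wall invertases named insoluble isoenzyme 2-like went different ways. The first (LOC117862502) had 11.3, 12.4, 11.3 and 9.12 CPM with AI2.2-A, 8.37, 8.12 and 8.39 CPM with CTB P6B8 and 3.67, 4.62, 2.84 and 3.45 CPM with MTS P5D6. Controls had 7.36, 8.16, 5.34 and 4.34 CPM. It rose with AI2.2-A and fell with MTS P5D6. The log2 fold changes were 0.81 ± 0.18 for AI2.2-A, 0.40 ± 0.19 for CTB P6B8 and -0.79 ± 0.19 for MTS P5D6 (adjusted p = 0.00147, 0.101 and 0.00254). A call for CTB P6B8 was made without Control replicate 2 (log2 fold change 0.55, adjusted p 0.0318). The AI2.2-A libraries lay above all controls and the MTS P5D6 libraries overlapped the lowest of them. The second (LOC117862780) had 3.79, 3.99, 4.63 and 3.89 CPM with AI2.2-A, 2.06, 2.07 and 3.36 CPM with CTB P6B8 and 1.37, 3.15, 1.65 and 1.36 CPM with MTS P5D6. Controls had 1.15, 1.25, 1.07 and 0.879 CPM. It rose with all 3. Log2 fold changes over control were 1.90 ± 0.27 for AI2.2-A, 1.21 ± 0.29 for CTB P6B8 and 0.80 ± 0.28 for MTS P5D6 (adjusted p = 3.62e-05, 0.00297 and 0.0266). The MTS P5D6 call was lost without any 1 of MTS P5D6 replicate 2 and Control replicates 3 and 4 (log2 fold change 0.43 to 0.79, adjusted p 0.0506 to 0.137). The genes lie side by side in the reference annotation, and how far they share reads was not tested.

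Beta-fructofuranosidase 1 (LOC117865261) had 40.5, 59.0, 55.0 and 78.2 CPM with AI2.2-A, 88.9, 166 and 84.4 CPM with CTB P6B8 and 102, 82.0, 91.1 and 113 CPM with MTS P5D6. Controls had 59.4, 68.6, 70.5 and 61.8 CPM. All MTS P5D6 and CTB P6B8 libraries lay above all controls, and the AI2.2-A libraries lay on both sides. Fold changes on the log2 scale were -0.16 ± 0.20 for AI2.2-A, 0.80 ± 0.22 for CTB P6B8 and 0.58 ± 0.20 for MTS P5D6 (adjusted p = 0.534, 0.00692 and 0.0251). CTB P6B8 replicate 2, at 166 CPM, was the highest of its group, and the CTB P6B8 call was lost without CTB P6B8 replicate 2 (log2 fold change 0.41, adjusted p 0.0792). With MTS P5D6 the call was lost without any 1 of MTS P5D6 replicates 1 and 4 and Control replicates 1 and 4 (log2 fold change 0.49 to 0.55, adjusted p 0.0523 to 0.0714).

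The most counted invertase was a neutral or alkaline form named mitochondrial-like (LOC117857440), which had 131, 170.1, 163 and 256 CPM with AI2.2-A, 205, 214 and 221 CPM with CTB P6B8 and 229, 259, 284 and 354 CPM with MTS P5D6. Controls had 312, 302, 367 and 368 CPM. All AI2.2-A and CTB P6B8 libraries lay below all controls, and AI2.2-A replicate 4 was the highest of its group. The log2 fold changes were -0.91 ± 0.17 for AI2.2-A, -0.66 ± 0.18 for CTB P6B8 and -0.26 ± 0.16 for MTS P5D6 (adjusted p = 0.000367, 0.00708 and 0.193). Of the 7 neutral, alkaline and cytosolic invertases, 5 fell with AI2.2-A (71.4%), 4 fell with CTB P6B8 (57.1%) and 1 fell with MTS P5D6 (14.3%). With each isolate, 1 rose (14.3%). Over all genes, 23.4%, 22.6% and 23.9% rose and 24.3%, 22.7% and 28.3% fell with the isolates in that order. By library totals alone 2 of the 7 fell with AI2.2-A. The gene that rose was alkaline/neutral invertase F (LOC117833742). On the log2 scale the changes were 0.80 ± 0.14 for AI2.2-A, 0.76 ± 0.15 for CTB P6B8 and 0.69 ± 0.14 for MTS P5D6. Neutral/alkaline invertase 3 (LOC117852690) fell with each, at -0.49 ± 0.08 for AI2.2-A, -0.74 ± 0.09 for CTB P6B8 and -0.47 ± 0.08 for MTS P5D6.

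Most starch synthases fell. Of the 9 tested starch synthases, 6 fell and none rose with AI2.2-A (66.7% and 0%). With CTB P6B8, 7 fell and 1 rose (77.8% and 11.1%), and with MTS P5D6, 5 fell and none rose (55.6% and 0%). Over all genes, 24.3%, 22.7% and 28.3% fell and 23.4%, 22.6% and 23.9% rose with the isolates in that order. The exception that rose, soluble starch synthase 2-3 (LOC117851816), was counted at 0.657 to 0.921 CPM with CTB P6B8 and 0.381 to 0.472 CPM in controls. That call was lost without any 1 of AI2.2-A replicates 3 and 4, CTB P6B8 replicates 1 and 2, MTS P5D6 replicates 3 and 4 and Control replicates 1, 2, 3 and 4 (log2 fold change 0.80 to 0.94, adjusted p 0.0522 to 0.123). The most counted starch synthase (LOC117860954, starch synthase 3-like, an enzyme of amylopectin synthesis) had 198, 193, 205 and 211 CPM with AI2.2-A, 233, 215 and 227 CPM with CTB P6B8 and 232, 233, 253 and 263 CPM with MTS P5D6. Controls had 267, 258, 263 and 263 CPM. It fell with AI2.2-A and CTB P6B8 and was not called with MTS P5D6. Relative to control the log2 fold changes were -0.38 ± 0.06 for AI2.2-A, -0.22 ± 0.07 for CTB P6B8 and -0.10 ± 0.06 for MTS P5D6 (adjusted p = 0.000133, 0.0123 and 0.189). The AI2.2-A and CTB P6B8 libraries lay below all controls. The CTB P6B8 call was lost without any 1 of CTB P6B8 replicates 2 and 3 (log2 fold change -0.19 to -0.18, adjusted p 0.0557 to 0.0759).

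Several other synthases fell. Soluble starch synthase 2-1-like (LOC117838981) had 42.5, 34.9, 32.9 and 37.6 CPM with AI2.2-A, 35.9, 42.0 and 32.2 CPM with CTB P6B8 and 41.0, 46.9, 35.6 and 44.1 CPM with MTS P5D6. Controls had 82.7, 82.7, 76.0 and 78.0 CPM. All 11 isolate libraries, at 32.2 to 46.9 CPM, lay below all controls, at 76.0 to 82.7 CPM. Fold changes on the log2 scale were -1.11 ± 0.10 for AI2.2-A, -1.12 ± 0.11 for CTB P6B8 and -0.93 ± 0.10 for MTS P5D6 (adjusted p = 6.71e-07, 2.05e-06 and 1.82e-06). Another starch synthase 3-like gene (LOC117863422) had 195, 204, 169.8 and 192 CPM with AI2.2-A, 135, 125 and 148 CPM with CTB P6B8 and 142, 177, 119 and 162 CPM with MTS P5D6. Controls had 318, 297, 274 and 292 CPM. Its isolate libraries also lay below all controls. Fold changes on the log2 scale were -0.63 ± 0.10 for AI2.2-A, -1.12 ± 0.12 for CTB P6B8 and -0.98 ± 0.10 for MTS P5D6 (adjusted p = 0.000147, 3.35e-06 and 1.88e-06). AI2.2-A was less far below than MTS P5D6, by 0.34 ± 0.10 (adjusted p = 0.0131). Probable starch synthase 4 (LOC117848402) fell with each isolate, at -0.58 ± 0.08 for AI2.2-A, -0.63 ± 0.08 for CTB P6B8 and -0.51 ± 0.08 for MTS P5D6, and so did soluble starch synthase 2-2-like (LOC117837881), at -0.50 ± 0.08 for AI2.2-A, -0.63 ± 0.09 for CTB P6B8 and -0.68 ± 0.08 for MTS P5D6. In both genes every isolate library lay below all controls.

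Granule-bound starch synthase 1b (LOC117844562), of the class that makes amylose, had 207, 326, 176 and 221 CPM with AI2.2-A, 152, 120.4 and 163 CPM with CTB P6B8 and 124, 166, 153 and 154 CPM with MTS P5D6. Controls had 378, 284, 282 and 285 CPM. The CTB P6B8 and MTS P5D6 libraries lay below all controls, while AI2.2-A replicate 2, at 326 CPM, lay among them. Log2 fold changes over control were -0.40 ± 0.16 for AI2.2-A, -1.08 ± 0.18 for CTB P6B8 and -1.04 ± 0.16 for MTS P5D6 (adjusted p = 0.0505, 0.000186 and 7.21e-05). An AI2.2-A call was made without any 1 of AI2.2-A replicate 2, CTB P6B8 replicate 2 and MTS P5D6 replicate 1 (log2 fold change -0.61 to -0.40, adjusted p 0.00188 to 0.0483).

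Genes of ADP-glucose pyrophosphorylase, the first committed enzyme of starch synthesis, fell in part with MTS P5D6. The most counted large subunit gene (LOC117838388) had 314, 354, 299.6 and 348 CPM with AI2.2-A, 348, 277 and 359 CPM with CTB P6B8 and 339, 384, 377 and 364 CPM with MTS P5D6. Controls had 451, 411, 419 and 435 CPM. All isolate libraries lay below all controls. The changes on the log2 scale were -0.38 ± 0.09 for AI2.2-A, -0.39 ± 0.09 for CTB P6B8 and -0.23 ± 0.09 for MTS P5D6 (adjusted p = 0.0018, 0.00329 and 0.0342). The MTS P5D6 call was lost without any 1 of CTB P6B8 replicate 3, MTS P5D6 replicates 1 and 4 and Control replicates 1, 3 and 4 (log2 fold change -0.24 to -0.19, adjusted p 0.0501 to 0.0983). Of the 6 tested subunit genes, 1 rose and 1 fell with AI2.2-A (16.7% and 16.7%), and none rose and 2 fell with CTB P6B8 (0% and 33.3%). With MTS P5D6, none rose and 4 fell (0% and 66.7%). Over all genes, 23.4%, 22.6% and 23.9% rose and 24.3%, 22.7% and 28.3% fell with the isolates in that order. The 4 lower with MTS P5D6 became 2 by library totals alone, and 2 without any 1 of CTB P6B8 replicate 3, MTS P5D6 replicates 1 and 4 and Control replicates 1 and 3. The 1 higher with AI2.2-A became 0 without any 1 of AI2.2-A replicates 1 and 4 and Control replicates 2, 3 and 4, and 2 without Control replicate 1. The 2 lower with CTB P6B8 became 1 without CTB P6B8 replicate 2. AI2.2-A was above MTS P5D6 for 4 of the 6 (66.7%, where over all genes 23.8% were higher).

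The most counted branching enzyme (LOC117865615), which adds the branch points of amylopectin, had 189, 218, 192 and 219 CPM with AI2.2-A, 174, 132 and 200.3 CPM with CTB P6B8 and 199, 258, 234 and 213 CPM with MTS P5D6. Controls had 283, 239, 241 and 251 CPM. The AI2.2-A and CTB P6B8 libraries lay below all controls and the MTS P5D6 libraries overlapped them. Its log2 fold changes were -0.31 ± 0.11 for AI2.2-A, -0.59 ± 0.12 for CTB P6B8 and -0.17 ± 0.11 for MTS P5D6 (adjusted p = 0.0325, 0.00124 and 0.23). The AI2.2-A call was lost without any 1 of AI2.2-A replicates 1 and 3 and Control replicates 1 and 4 (log2 fold change -0.32 to -0.25, adjusted p 0.0562 to 0.0963). The related gene LOC117854082 rose with all 3, at 0.51 ± 0.11 for AI2.2-A, 0.47 ± 0.12 for CTB P6B8 and 0.40 ± 0.11 for MTS P5D6. Isoamylase 3 (LOC117844752), a debranching enzyme that acts in starch breakdown in Arabidopsis, fell with all 3, at -0.56 ± 0.08 for AI2.2-A, -0.64 ± 0.08 for CTB P6B8 and -0.67 ± 0.08 for MTS P5D6.

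On the breakdown side, alpha-glucan water dikinase (LOC117852289), which phosphorylates the granule surface to open it to attack, was highest with MTS P5D6. It had 185, 213, 211 and 248 CPM with AI2.2-A, 263, 231 and 244 CPM with CTB P6B8 and 323, 344, 337 and 335 CPM with MTS P5D6. Controls had 194, 186, 189.5 and 198 CPM. The MTS P5D6 libraries lay above every other library, the CTB P6B8 libraries lay above all controls, and the AI2.2-A libraries overlapped them. On the log2 scale the changes were 0.16 ± 0.08 for AI2.2-A, 0.36 ± 0.08 for CTB P6B8 and 0.80 ± 0.08 for MTS P5D6 (adjusted p = 0.108, 0.00271 and 8.28e-07). The differences were -0.64 ± 0.08 for AI2.2-A over MTS P5D6 and -0.44 ± 0.09 for CTB P6B8 over MTS P5D6 (adjusted p = 1.45e-05 and 0.00166). An AI2.2-A call was made without AI2.2-A replicate 1 (log2 fold change 0.22, adjusted p 0.0262).

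Active beta-amylases release maltose from starch. The most counted (LOC117841976, beta-amylase-like) had 494, 614, 498 and 499 CPM with AI2.2-A, 523, 423 and 597 CPM with CTB P6B8 and 428, 368, 433 and 418 CPM with MTS P5D6. Controls had 660.3, 558, 618 and 589 CPM. It fell with MTS P5D6, whose libraries all lay below every other library except CTB P6B8 replicate 2. The log2 fold changes were -0.20 ± 0.10 for AI2.2-A, -0.24 ± 0.11 for CTB P6B8 and -0.56 ± 0.11 for MTS P5D6 (adjusted p = 0.12, 0.0998 and 0.000348). An AI2.2-A call was made without AI2.2-A replicate 2 (log2 fold change -0.29, adjusted p 0.0339). Its neighbour of the same name (LOC117842592) had 2.75, 6.15, 2.03 and 3.12 CPM with AI2.2-A, 5.42, 5.99 and 3.75 CPM with CTB P6B8 and 3.01, 2.17, 2.99 and 3.27 CPM with MTS P5D6. Controls had 14.4, 10.5, 8.55 and 8.38 CPM. All isolate libraries of the neighbour lay below all controls. Log2 fold changes over control were -1.57 ± 0.28 for AI2.2-A, -1.06 ± 0.29 for CTB P6B8 and -1.87 ± 0.29 for MTS P5D6 (adjusted p = 0.000265, 0.00809 and 5.5e-05). The CTB P6B8 call was lost without CTB P6B8 replicate 3 (log2 fold change -0.83, adjusted p 0.0615). Beta-amylase 3 (LOC117837162), a main leaf form in Arabidopsis, fell with AI2.2-A and rose with MTS P5D6. On the log2 scale the changes were -0.35 ± 0.09 for AI2.2-A, 0.09 ± 0.10 for CTB P6B8 and 0.29 ± 0.09 for MTS P5D6. It had 314 to 416 CPM with AI2.2-A, 448 to 489 CPM with CTB P6B8, 508 to 605 CPM with MTS P5D6 and 403 to 471 CPM in controls. AI2.2-A was below MTS P5D6, at a log2 difference of -0.64 ± 0.09 (adjusted p = 5.78e-05). The MTS P5D6 call was lost without MTS P5D6 replicate 4 (log2 fold change 0.23, adjusted p 0.0538). Over the 8 tested beta-amylases, 5 fell and none rose with AI2.2-A (62.5% and 0%), and 3 fell and 1 rose with CTB P6B8 (37.5% and 12.5%). With MTS P5D6, 3 fell and 2 rose (37.5% and 25%). Over all genes, 24.3%, 22.7% and 28.3% fell and 23.4%, 22.6% and 23.9% rose with the isolates in that order. The 8 include a gene labelled inactive beta-amylase 9-like (LOC117838113), which was called with none. Without CTB P6B8 replicate 3, 1 of the 8 fell with CTB P6B8. With MTS P5D6, 1 rose without any 1 of MTS P5D6 replicate 3 and Control replicates 3 and 4, and none rose without MTS P5D6 replicate 4.

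The 3 disproportionating enzymes differed. The DPE2-like gene (LOC117843901), whose Arabidopsis counterpart uses maltose in the cytosol, had 156, 159, 177 and 179.7 CPM with AI2.2-A, 152, 119 and 178 CPM with CTB P6B8 and 147, 186, 166 and 156 CPM with MTS P5D6. Controls had 125, 115, 114 and 117 CPM. All AI2.2-A and MTS P5D6 libraries and all but replicate 2 of CTB P6B8 lay above all controls. It rose with each isolate. Relative to control the log2 fold changes were 0.51 ± 0.10 for AI2.2-A, 0.35 ± 0.11 for CTB P6B8 and 0.48 ± 0.10 for MTS P5D6 (adjusted p = 0.000825, 0.0187 and 0.0012). The CTB P6B8 call was lost without any 1 of CTB P6B8 replicates 1 and 3 (log2 fold change 0.25 to 0.34, adjusted p 0.0519 to 0.0773). DPE2 (LOC117838493) fell with CTB P6B8 and MTS P5D6, at -0.05 ± 0.10 for AI2.2-A, -0.45 ± 0.11 for CTB P6B8 and -0.43 ± 0.10 for MTS P5D6. DPE1 (LOC117845412), the plastid enzyme, rose with AI2.2-A and fell with MTS P5D6, at 0.58 ± 0.10 for AI2.2-A, 0.18 ± 0.11 for CTB P6B8 and -0.33 ± 0.10 for MTS P5D6, and stood at 41.0 to 42.9 CPM with AI2.2-A, 26.3 to 36.03 CPM with CTB P6B8, 20.4 to 26.2 CPM with MTS P5D6 and 25.9 to 31.2 CPM in controls. A CTB P6B8 call was made without CTB P6B8 replicate 2 (log2 fold change 0.30, adjusted p 0.0278).

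**Figure D3:**
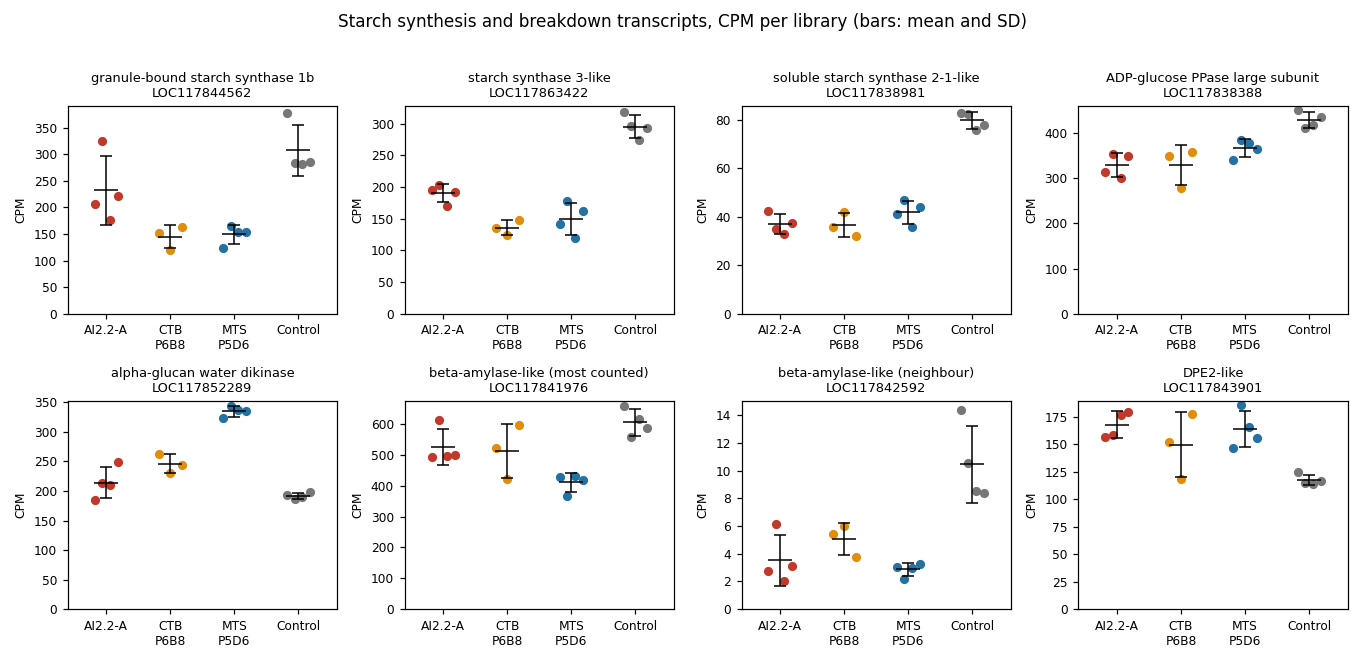
CPM per library (y axis, from 0) of 4 starch synthesis genes and 4 starch breakdown genes, with points for libraries and bars for mean and SD, in AI2.2-A, CTB P6B8, MTS P5D6 and control shoots (x axis). Soluble starch synthase 2-1-like stands at 32.2 to 46.9 CPM in all isolate libraries and 76.0 to 82.7 CPM in controls, and alpha-glucan water dikinase at 323 to 344 CPM with MTS P5D6 and 186 to 198 CPM in controls.

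Alpha-amylases, which cut starch chains internally and are known in cereals for their induction by sugar starvation and in germinating seeds, included more genes that rose than fell with CTB P6B8 and MTS P5D6. Of the 12 tested, 3 rose and 4 fell with AI2.2-A (25% and 33.3%), near the 23.4% and 24.3% over all genes. With CTB P6B8, 6 rose and 1 fell (50% and 8.33%, over all genes 22.6% and 22.7%). With MTS P5D6, 8 rose and 1 fell (66.7% and 8.33%, over all genes 23.9% and 28.3%). Between isolates, AI2.2-A was lower than MTS P5D6 for 8 and higher for 1 (66.7% and 8.33%, over all genes 21.4% and 23.8%). It was lower than CTB P6B8 for 4 and higher for none (33.3% and 0%, over all genes 5.86% and 4.53%). The count of 4 ran from 1 without CTB P6B8 replicate 2 to 7 without AI2.2-A replicate 4. Of the 8 tested seed markers, 2 rose and 1 fell with AI2.2-A (25% and 12.5%), and 3 rose and none fell with CTB P6B8 (37.5% and 0%). With MTS P5D6, 5 rose and none fell (62.5% and 0%). Over all genes, 23.4%, 22.6% and 23.9% rose and 24.3%, 22.7% and 28.3% fell with the isolates in that order. Of the 8 seed markers, 2 were higher and 3 lower with AI2.2-A than with MTS P5D6 (25% and 37.5%). Over all genes, 23.8% were higher and 21.4% lower. The part of seed markers in the alpha-amylase counts was not tested. The 12 genes include groups of neighbours with similar names, and how their reads were shared was not tested.

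The most counted alpha-amylase was isozyme 3D-like (LOC117860059), which had 32.3, 88.8, 49.4 and 129 CPM with AI2.2-A, 160.0, 169 and 131 CPM with CTB P6B8 and 474, 306, 199.8 and 300.3 CPM with MTS P5D6. Controls had 159.8, 280.5, 310.4 and 291 CPM. All AI2.2-A libraries lay below all controls, CTB P6B8 and MTS P5D6 libraries overlapped them, and within AI2.2-A the values ran from 32.3 to 129 CPM. Relative to control the log2 fold changes were -1.80 ± 0.35 for AI2.2-A, -0.76 ± 0.37 for CTB P6B8 and 0.30 ± 0.33 for MTS P5D6 (adjusted p = 0.000553, 0.101 and 0.476). AI2.2-A was below MTS P5D6, at a log2 difference of -2.10 ± 0.35 (adjusted p = 0.000194). Next to it in the annotation, isozyme 3D (LOC117859981) had 2.08, 7.39, 3.49 and 8.59 CPM with AI2.2-A, 12.9, 11.9 and 10.1 CPM with CTB P6B8 and 32.6, 16.5, 12.2 and 21.5 CPM with MTS P5D6. Controls had 1.96, 4.35, 5.27 and 4.65 CPM. All CTB P6B8 and MTS P5D6 libraries lay above all controls. Fold changes on the log2 scale were 0.40 ± 0.41 for AI2.2-A, 1.51 ± 0.41 for CTB P6B8 and 2.35 ± 0.39 for MTS P5D6 (adjusted p = 0.436, 0.00716 and 0.000119).

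The third gene of that group, a 3B-like isozyme (LOC117860330), had 0.918, 1.79, 2.60 and 8.21 CPM with AI2.2-A, 4.03, 6.91 and 4.60 CPM with CTB P6B8 and 19.3, 10.3, 15.1 and 17.8 CPM with MTS P5D6. Controls had 6.34, 7.88, 3.74 and 3.36 CPM. It rose with MTS P5D6, where all libraries lay above every other library. The log2 fold changes were -0.68 ± 0.48 for AI2.2-A, -0.06 ± 0.50 for CTB P6B8 and 1.54 ± 0.45 for MTS P5D6 (adjusted p = 0.256, 0.936 and 0.00862). AI2.2-A replicate 4 was far above the rest of its group. A call for AI2.2-A was made without AI2.2-A replicate 4 (log2 fold change -1.62, adjusted p 0.00256). AI2.2-A was below MTS P5D6, at a log2 difference of -2.22 ± 0.46 (adjusted p = 0.00108), a difference that moved without AI2.2-A replicate 4 (log2 fold change -3.17, adjusted p 1.08e-05).

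Of the type A isozymes, a low-count gene (LOC117852005) had 2.36, 2.07, 1.93 and 1.73 CPM with AI2.2-A, 2.82, 4.89 and 3.87 CPM with CTB P6B8 and 1.81, 1.20, 1.24 and 0.740 CPM with MTS P5D6. Controls had 0.405, 0.272, 0.382 and 0.362 CPM. Every isolate library lay above all controls. Log2 fold changes over control were 2.50 ± 0.30 for AI2.2-A, 3.43 ± 0.30 for CTB P6B8 and 1.81 ± 0.32 for MTS P5D6 (adjusted p = 9.21e-06, 8.26e-07 and 0.000192), and CTB P6B8 was above MTS P5D6 by 1.61 ± 0.25 (adjusted p = 0.000361). Its near neighbour (LOC117852011) rose likewise, at 2.50 ± 0.46 for AI2.2-A, 3.16 ± 0.46 for CTB P6B8 and 1.95 ± 0.49 for MTS P5D6, and its CTB P6B8 value moved without CTB P6B8 replicate 2 (log2 fold change 2.57, adjusted p 0.000228). Another type A gene (LOC117846874) had 0.798, 1.56, 0.989 and 1.30 CPM with AI2.2-A, 1.34, 1.73 and 1.12 CPM with CTB P6B8 and 1.42, 1.36, 3.46 and 2.40 CPM with MTS P5D6. Controls had 0.675, 0.544, 0.305 and 0.569 CPM. It too lay above all controls in every isolate library. On the log2 scale the changes were 1.12 ± 0.37 for AI2.2-A, 1.37 ± 0.38 for CTB P6B8 and 2.02 ± 0.35 for MTS P5D6 (adjusted p = 0.0204, 0.00849 and 0.000192). The AI2.2-A call was lost without any 1 of AI2.2-A replicate 2 and Control replicate 3 (log2 fold change 0.94 to 0.96, adjusted p 0.0593 to 0.0644). A more counted type A-like gene (LOC117852322) fell with AI2.2-A and rose with MTS P5D6, at -0.65 ± 0.16 for AI2.2-A, 0.23 ± 0.17 for CTB P6B8 and 0.51 ± 0.15 for MTS P5D6. It had 17.6 to 25.0 CPM with AI2.2-A, 30.0 to 56.2 CPM with CTB P6B8, 46.6 to 52.2 CPM with MTS P5D6 and 32.4 to 36.9 CPM in controls. A call for CTB P6B8 was made without CTB P6B8 replicate 3 (log2 fold change 0.45, adjusted p 0.0405).

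The type B-like isozyme (LOC117839272) had 4.23, 5.88, 2.97 and 4.66 CPM with AI2.2-A, 7.30, 9.96 and 8.04 CPM with CTB P6B8 and 9.04, 7.07, 8.20 and 10.4 CPM with MTS P5D6. Controls had 8.10, 11.6, 17.9 and 14.5 CPM. All AI2.2-A libraries lay below all controls, and CTB P6B8 and MTS P5D6 libraries overlapped the lowest control. Fold changes on the log2 scale were -1.55 ± 0.23 for AI2.2-A, -0.63 ± 0.24 for CTB P6B8 and -0.59 ± 0.22 for MTS P5D6 (adjusted p = 5.36e-05, 0.0385 and 0.0324). The CTB P6B8 call was lost without any 1 of CTB P6B8 replicates 1 and 3 and Control replicates 3 and 4 (log2 fold change -0.57 to -0.45, adjusted p 0.0905 to 0.136). The MTS P5D6 call was lost without any 1 of CTB P6B8 replicate 3, MTS P5D6 replicates 1, 2 and 3 and Control replicates 3 and 4 (log2 fold change -0.61 to -0.40, adjusted p 0.051 to 0.134).

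**Figure D4:**
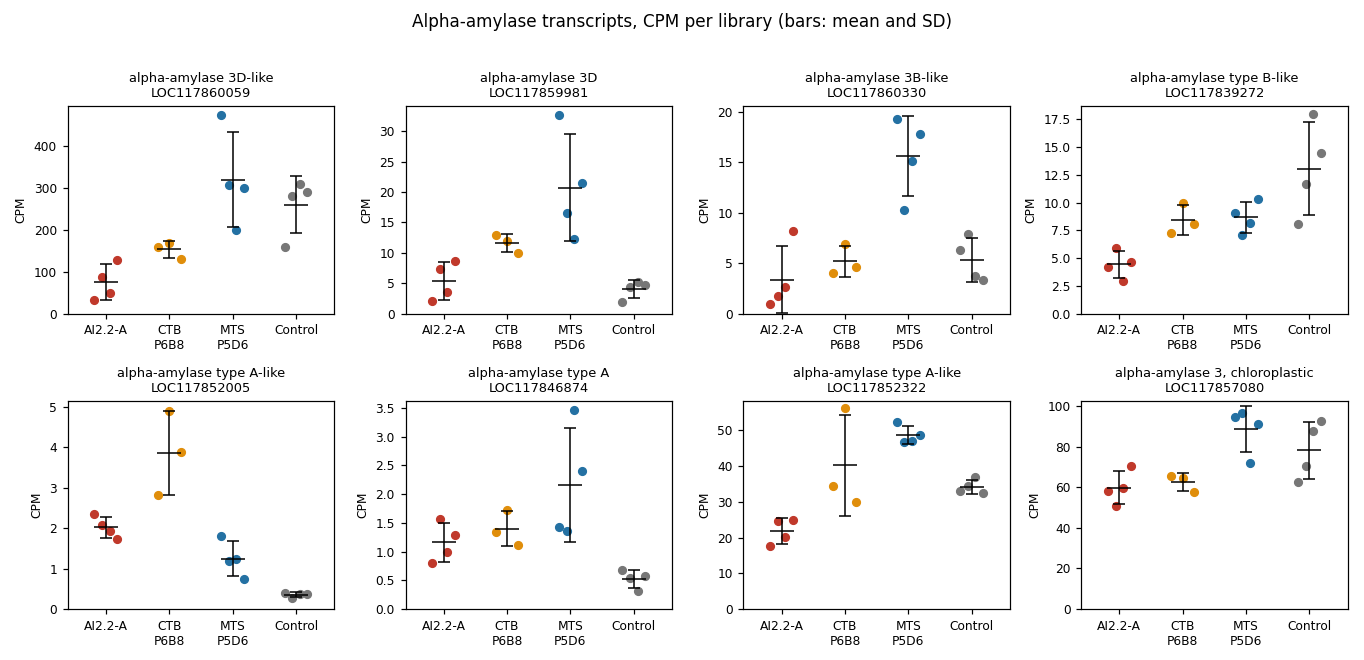
CPM per library (y axis, from 0) of 8 alpha-amylase genes, with points for libraries and bars for mean and SD, in AI2.2-A, CTB P6B8, MTS P5D6 and control shoots (x axis). Isozyme 3D-like stands at 32.3 to 129 CPM with AI2.2-A and 159.8 to 310.4 CPM in controls, and the type A-like gene LOC117852005 at 0.740 to 4.89 CPM in isolate libraries and 0.272 to 0.405 CPM in controls.

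In trehalose metabolism more synthases fell than rose, and no phosphatase fell. Of 9 TPS genes, 1 rose and 6 fell with AI2.2-A (11.1% and 66.7%), and none rose and 5 fell with CTB P6B8 (0% and 55.6%). With MTS P5D6, none rose and 4 fell (0% and 44.4%). Over all genes, 23.4%, 22.6% and 23.9% rose and 24.3%, 22.7% and 28.3% fell with the isolates in that order. Of 7 tested TPP genes, 3 rose with AI2.2-A (42.9%), 3 rose with CTB P6B8 (42.9%) and 5 rose with MTS P5D6 (71.4%), and none fell. Without Control replicate 4, 3 rose with MTS P5D6. The most counted was probable TPS 11 (LOC117841003), of the class II proteins that carry both domains but for which enzyme activity has mostly not been found. It had 721, 704, 825 and 1001 CPM with AI2.2-A, 978, 1039 and 1019.9 CPM with CTB P6B8 and 1243, 1175, 1279.6 and 1503 CPM with MTS P5D6. Controls had 924, 1048, 1275 and 1187 CPM. It fell with AI2.2-A, where replicate 4 lay among the controls and the other 3 libraries below them. Relative to control the log2 fold changes were -0.45 ± 0.12 for AI2.2-A, -0.13 ± 0.13 for CTB P6B8 and 0.23 ± 0.12 for MTS P5D6 (adjusted p = 0.00648, 0.441 and 0.122). AI2.2-A was below MTS P5D6, at a log2 difference of -0.68 ± 0.12 (adjusted p = 0.000356).

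A TPS 6-like gene (LOC117837626) fell most with MTS P5D6. It had 59.0, 51.0, 61.3 and 47.9 CPM with AI2.2-A, 47.0, 48.9 and 48.0 CPM with CTB P6B8 and 27.4, 33.0, 29.3 and 28.3 CPM with MTS P5D6. Controls had 66.7, 58.7, 61.8 and 56.9 CPM. All MTS P5D6 libraries lay below every other library and all CTB P6B8 libraries lay below all controls. Fold changes on the log2 scale were -0.15 ± 0.08 for AI2.2-A, -0.35 ± 0.09 for CTB P6B8 and -1.05 ± 0.09 for MTS P5D6 (adjusted p = 0.141, 0.00585 and 1.69e-07). MTS P5D6 was lower than both other isolates, with 0.89 ± 0.09 for AI2.2-A over MTS P5D6 and 0.70 ± 0.09 for CTB P6B8 over MTS P5D6 (adjusted p = 2.12e-06 and 0.000105). Another TPS 6-like gene (LOC117845106) fell with all 3, at -0.71 ± 0.11 for AI2.2-A, -0.62 ± 0.12 for CTB P6B8 and -0.36 ± 0.11 for MTS P5D6. The TPS that rose, TPS 1-like (LOC117848559), whose Arabidopsis counterpart is the active synthase, stood at 13.2 to 17.2 CPM with AI2.2-A, 11.02 to 11.3 CPM with CTB P6B8, 9.90 to 15.4 CPM with MTS P5D6 and 9.36 to 12.7 CPM in controls, with log2 fold changes of 0.51 ± 0.13 for AI2.2-A, 0.08 ± 0.14 for CTB P6B8 and 0.17 ± 0.14 for MTS P5D6.

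Among the phosphatases, probable TPP 9 (LOC117836793) had 3.75, 4.64, 4.53 and 4.51 CPM with AI2.2-A, 4.88, 3.97 and 4.06 CPM with CTB P6B8 and 4.66, 2.39, 4.64 and 4.38 CPM with MTS P5D6. Controls had 1.96, 1.52, 1.83 and 1.55 CPM. Every isolate library lay above all controls. The changes on the log2 scale were 1.35 ± 0.20 for AI2.2-A, 1.34 ± 0.21 for CTB P6B8 and 1.23 ± 0.20 for MTS P5D6 (adjusted p = 6.1e-05, 0.000126 and 0.000105). The RA3-like gene (LOC117842704), whose maize relative RAMOSA3 is known for its part in inflorescence branching, also rose with all 3, at 2.35 ± 0.39 for AI2.2-A, 1.77 ± 0.43 for CTB P6B8 and 1.57 ± 0.42 for MTS P5D6, from low counts: it stood at 1.06 to 1.67 CPM with AI2.2-A, 0.461 to 1.21 CPM with CTB P6B8, 0.617 to 1.14 CPM with MTS P5D6 and 0.109 to 0.414 CPM in controls. The most counted, probable TPP 1 (LOC117833387), had 29.6, 41.8, 39.0 and 53.9 CPM with AI2.2-A, 45.1, 31.6 and 40.9 CPM with CTB P6B8 and 61.7, 67.3, 66.5 and 62.1 CPM with MTS P5D6. Controls had 49.4, 51.6, 48.5 and 49.2 CPM. It lay above all controls in the MTS P5D6 libraries. Log2 fold changes over control were -0.28 ± 0.14 for AI2.2-A, -0.34 ± 0.15 for CTB P6B8 and 0.37 ± 0.14 for MTS P5D6 (adjusted p = 0.105, 0.0722 and 0.0292). The MTS P5D6 call was lost without any 1 of MTS P5D6 replicates 2 and 3 and Control replicates 1, 3 and 4 (log2 fold change 0.35 to 0.37, adjusted p 0.0557 to 0.0625). An AI2.2-A call was made without AI2.2-A replicate 4 (log2 fold change -0.44, adjusted p 0.00739). A call for CTB P6B8 was made without any 1 of AI2.2-A replicates 1 and 4 and CTB P6B8 replicate 1 (log2 fold change -0.45 to -0.34, adjusted p 0.0269 to 0.0413). Probable TPP 2 (LOC117838618) rose with CTB P6B8 and MTS P5D6, at 0.32 ± 0.27 for AI2.2-A, 0.90 ± 0.29 for CTB P6B8 and 1.36 ± 0.27 for MTS P5D6. The CTB P6B8 call was lost without any 1 of CTB P6B8 replicates 1 and 2 (log2 fold change 0.69 to 0.82, adjusted p 0.0543 to 0.0933).

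**Figure D5:**
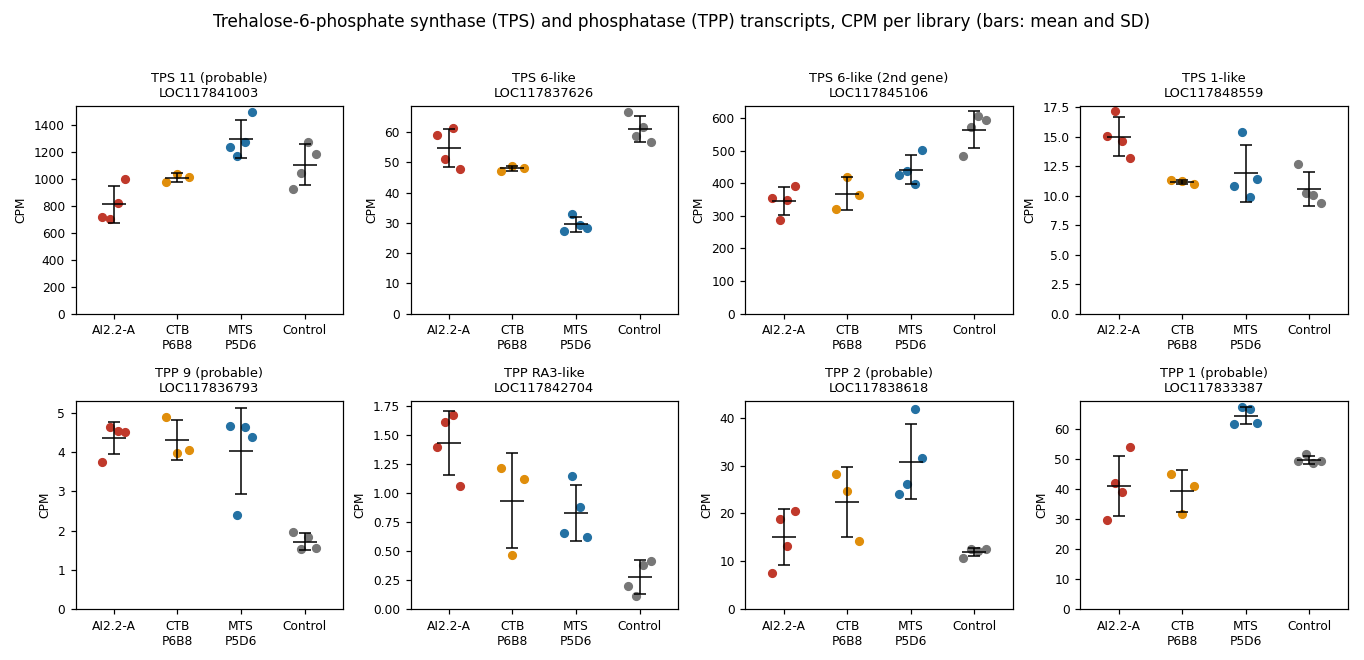
CPM per library (y axis, from 0) of 4 trehalose-6-phosphate synthase (TPS) and 4 trehalose-6-phosphate phosphatase (TPP) genes, with points for libraries and bars for mean and SD, in AI2.2-A, CTB P6B8, MTS P5D6 and control shoots (x axis). Probable TPP 9 stands at 2.39 to 4.88 CPM in isolate libraries and 1.52 to 1.96 CPM in controls, and the TPS 6-like gene LOC117837626 at 27.4 to 33.0 CPM with MTS P5D6 and 56.9 to 66.7 CPM in controls.

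The 6 genes that rose with an isolate and fell with another did so between AI2.2-A and MTS P5D6. The share of all genes that did so was not counted. Sucrose synthase 2, the invertase LOC117862502 and DPE1 rose with AI2.2-A and fell with MTS P5D6, and the alpha-amylase LOC117852322, beta-amylase 3 and beta-amylase 2-like (LOC117846563) fell with AI2.2-A and rose with MTS P5D6. They were picked for that contrast, so their values for AI2.2-A over MTS P5D6 are a description: the log2 differences were 1.99 ± 0.16, 1.6 ± 0.18, 0.91 ± 0.10, -1.16 ± 0.16, -0.64 ± 0.09 and -0.41 ± 0.08 in that order. With both isolates set against the same controls, the separate calls share the error of those controls, which the direct comparison does not use in its fold change.

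Of 51 further genes of these pathways, listed by name, 50 were tested; the name patterns also took in phosphofructokinases, a ketohexokinase and chromatin proteins named SNF12. With AI2.2-A 19 rose and 9 fell (38% and 18%, where over all genes 23.4% rose and 24.3% fell). With CTB P6B8 12 rose and 11 fell (24% and 22%), near the 22.6% and 22.7% over all genes, and with MTS P5D6 13 rose and 12 fell (26% and 24%), near the 23.9% and 28.3% over all genes. A gene named sucrose-phosphatase 3 or 2-like (LOC117848794), of the last step of sucrose synthesis, had 55.7, 49.4, 51.4 and 55.8 CPM with AI2.2-A, 47.9, 31.3 and 36.03 CPM with CTB P6B8 and 41.2, 32.2, 46.2 and 36.1 CPM with MTS P5D6. Controls had 11.3, 11.6, 9.16 and 10.2 CPM. Every isolate library lay above all controls. It rose with each isolate. On the log2 scale the changes were 2.32 ± 0.14 for AI2.2-A, 1.86 ± 0.14 for CTB P6B8 and 1.88 ± 0.14 for MTS P5D6, while sucrose-phosphatase 1 (LOC117845004) fell with each, at -0.39 ± 0.14 for AI2.2-A, -0.79 ± 0.16 for CTB P6B8 and -0.89 ± 0.15 for MTS P5D6. Its AI2.2-A call was lost without any 1 of AI2.2-A replicates 1, 3 and 4, CTB P6B8 replicate 3 and Control replicate 1 (log2 fold change -0.37 to -0.22, adjusted p 0.0627 to 0.162). Probable trehalase (LOC117840523), which splits trehalose, rose with each, at 0.49 ± 0.19 for AI2.2-A, 1.09 ± 0.20 for CTB P6B8 and 1.61 ± 0.19 for MTS P5D6, and had 51.2 to 89.1 CPM with AI2.2-A, 75.9 to 119.8 CPM with CTB P6B8, 128 to 183 CPM with MTS P5D6 and 35.2 to 55.2 CPM in controls. The AI2.2-A call was lost without any 1 of AI2.2-A replicates 2 and 4 and Control replicates 1 and 3 (log2 fold change 0.34 to 0.50, adjusted p 0.0665 to 0.149).

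Hexokinase-7 (LOC117848900), of the enzymes that phosphorylate glucose, rose with each isolate. Relative to control the log2 fold changes were 0.84 ± 0.19 for AI2.2-A, 1.51 ± 0.20 for CTB P6B8 and 2.06 ± 0.20 for MTS P5D6, and was lower with AI2.2-A than with MTS P5D6, at a log2 difference of -1.23 ± 0.19 (adjusted p = 8.73e-05). The sucrose transporter SUT5-like (LOC117858716) had 18.2, 14.4, 13.3 and 9.94 CPM with AI2.2-A, 14.3, 13.5 and 15.8 CPM with CTB P6B8 and 3.95, 3.70, 3.66 and 2.71 CPM with MTS P5D6. Controls had 5.74, 5.71, 7.86 and 6.67 CPM. The AI2.2-A and CTB P6B8 libraries lay above all controls and the MTS P5D6 libraries below them. It rose with AI2.2-A and CTB P6B8 and fell with MTS P5D6, at 1.11 ± 0.17 for AI2.2-A, 1.17 ± 0.18 for CTB P6B8 and -0.88 ± 0.18 for MTS P5D6. The maltose exporter gene named maltose excess protein 1-like (LOC117862973) fell with each, at -0.66 ± 0.12 for AI2.2-A, -0.70 ± 0.13 for CTB P6B8 and -0.95 ± 0.12 for MTS P5D6. Of the phosphofructokinases named by the same rule, LOC117850201 rose with all 3, at 1.19 ± 0.11 for AI2.2-A, 0.72 ± 0.12 for CTB P6B8 and 0.38 ± 0.11 for MTS P5D6, and LOC117865850 rose with CTB P6B8, at 1.74 ± 0.49, a call that was lost without CTB P6B8 replicate 2 (log2 fold change 1.29, adjusted p 0.0566).

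The authors' deposited table for AI2.2-A against control lists 23 starch and sugar genes higher and 34 lower at an adjusted p under 0.05, and all 56 genes called here are among them with the same sign. For CTB P6B8 and MTS P5D6 against control the authors' deposited tables share 47 of 50 and 49 of 52 calls, and in none of the 6 comparisons did a gene called in both have opposite signs.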

How the data were processed

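Shoot RNA of 15 libraries was measured. The authors deposited 1 table of read counts per gene (28032 genes, 13852517 to 25123025 counts per library), and deposited tables of log2 fold changes with p-values for each comparison. Per the submitters' processing notes, FastQC, Trimmomatic 036, HISAT2, featureCounts and DESeq2 1.6.3 were used. Their settings, and how reads of gene copies were shared, are not stated, and the genome build and strand use are not given in the sources here. Libraries of a group differed by more than sampling noise in all 21 pairs (chi-square per degree of freedom 2.69 to 21.4). Nothing in the labels says that they came from separate plates, so p-values measure the spread between these libraries.

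Genes with too few counts (filterByExpr) were dropped, which left 20310. The other counts were scaled by TMM and fitted in 1 model of the 4 groups with edgeR 4.0.16 (R 4.3.3), two-sided quasi-likelihood test, Benjamini-Hochberg adjustment over all genes, called at an adjusted p under 0.05. The ± beside a log2 fold change is its standard error, from the change and the F statistic. Levels are CPM on TMM-scaled totals, which do not correct for gene length. The script was tested on simulated counts. Alternatives were RLE scaling, library totals, no filter, 10 counts in 3 libraries, DESeq2 1.42.0, limma-voom 3.58.1 with quality weights, an adjusted p under 0.01, the compared groups alone, a replicate block, and each library left out.

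The genes and lists were chosen with earlier results of these data known. Genes with values in every library are the most counted of each enzyme class, the 5 called genes at either end of the fold changes for each isolate, and the 3 that differed most for each pair of isolates, at a mean of at least 1 CPM. A like rule (the 3 called genes of largest fold change for each isolate) named other pathway genes, 2 of which are also given in every library. Sucrose-phosphatase 1 and maltose excess protein 1-like were not named by it and were chosen after their values were seen. Sequences were not used here. RefSeq's Setaria_viridis_v4.0 table, which holds 95 of the 97 genes, served to find which genes neighbour each other. No enzyme activity or sugar was measured. Figures were drawn with matplotlib 3.10.9.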

Additional observations from a re-analysis of the deposited data

Results flagged for a closer look

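Single libraries stood far from the rest of their group in 5 of 84 groups of 4 libraries, looked at gene by gene over the genes given in every library, and chance sets apart about 1 in 20 groups. Groups of 3 were not looked at. For beta-amylase-like LOC117841976, AI2.2-A replicate 2 had 614.4 CPM and the other AI2.2-A libraries 494.4 to 499.1 CPM. For probable TPP 9 (LOC117836793), AI2.2-A replicate 1 had 3.752 CPM and the others 4.512 to 4.636 CPM, while MTS P5D6 replicate 2 had 2.391 CPM and the others 4.378 to 4.658 CPM. For the invertase LOC117862780, MTS P5D6 replicate 2 had 3.152 CPM and the others 1.357 to 1.651 CPM. For granule-bound starch synthase 1b (LOC117844562), Control replicate 1 had 378.3 CPM and the other controls 282 to 285.4 CPM.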

How the results depend on the processing

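The comparisons with control kept their counts within 1.5 times under every alternative but 1: with an adjusted p under 0.01, 15 starch and sugar genes were higher with MTS P5D6, against 24. At that threshold AI2.2-A against CTB P6B8 gave 1 higher, 1 lower and 489 over all genes (9, 7 and 2110 at 0.05), and CTB P6B8 against MTS P5D6 gave 5, 3 and 2574 (14, 12 and 5347). For AI2.2-A against CTB P6B8, the 2 groups alone gave 3, 3 and 871, limma-voom gave 14 higher and 12 lower, and leaving out a library gave 2 to 11 higher, 1 to 16 lower and 644 to 2464 over all genes. For CTB P6B8 against MTS P5D6, library totals gave 5 lower, and leaving out a library gave 9 to 16, 6 to 15 and 3345 to 5649. The causes were not tested.

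By the replicate numbers of the sample titles, deviations of same-numbered libraries correlated at -0.153 to 0.142. Of 21 pairs, 1 was over 0.1, so those numbers did not pair the libraries. Correlations by the numbers in the count table's column names were not computed. A fit with the replicate block gave 21 higher and 32 lower starch and sugar genes with AI2.2-A, 20 and 28 with CTB P6B8, and 25 and 28 with MTS P5D6. A replicate block by the number in the count table's column names, which differs for 2 MTS P5D6 libraries and was chosen after seeing the data, gave 7 higher, 4 lower and 2786 over all genes for CTB P6B8 against MTS P5D6.

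Of the 28 starch and sugar genes given in every library, 52 of 64 calls against control and 24 of 38 between isolates held under all 25 alternatives, and none changed sign. Alternatives other than left-out libraries also lost calls. The AI2.2-A call of the branching enzyme LOC117865615 was lost in 9 of the 25, with log2 fold changes of -0.35 to -0.18 over all 25. That of starch synthase LOC117860954 with CTB P6B8 was lost in 5 (-0.25 to -0.12). That of LOC117838388 with MTS P5D6 was lost in 12 (-0.25 to -0.18). Scaling by library totals raised the share of all called genes that were higher, to 67.6% with AI2.2-A (49.0% by TMM), to 63.8% with CTB P6B8 (49.9%) and to 72.7% for CTB P6B8 against MTS P5D6 (57.9%). Genes under about 1 CPM rest on few counts, and their fold changes carry wide errors.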
